A study of Drosophila melanogaster with 23 samples.

Results

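Among 16637 transcripts measured in fly wing discs, 38 passed a signal minimum in both genotypes and were at least doubled without Myb. These 38 transcripts belonged to 33 genes. A transcript was included when its signal was 1000 or more in all 6 biological replicates, its mutant mean exceeded its control mean by at least 1 on the log2 scale, and all 3 mutant replicates lay above all 3 control replicates. Signal means the linear array intensity, as deposited, averaged on the log2 scale over the arrays of a replicate. Because the members were chosen by their mutant and control signals, their differences are given as a description and were not tested. Bright here means a signal of 1000 or more in all 6 replicates, which 7982 of the 16637 transcripts (48.0%) had. By mean signal, 27.0% of the bright transcripts lay under the median member. The first 2 criteria selected the same 38 of 7982 bright transcripts (0.476%), since none of the doubled bright transcripts overlapped between genotypes.

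The mutant larvae were males hemizygous for Myb MH107, a null allele made by mobilizing a P element, on a chromosome that also carries w1118. The deletion takes away the 5′ end of Myb and the nearby nonessential gene alkB, so every mutant sample lacked both. The labels give the phenotype as death in early pupae, whereas the study's text also names the last larval stage. The larvae were picked from a balanced stock by the absence of a GFP balancer. The controls were yw67 males of the laboratory line into which the allele had been outcrossed. All larvae were in the last larval stage, were reared at 25 °C on malt media, and gave wing imaginal discs, the epithelial sacs that form the adult wing and dorsal thorax. Each genotype had 3 biological replicates, with 12 mutant and 11 control arrays in all.

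Myb is a DNA-binding protein of the dREAM complex, which can activate or repress its target genes and is best known in flies for driving genes of mitosis. Wing discs at this stage grow by cell division until a pulse of the steroid hormone ecdysone, made outside the disc, starts metamorphosis. The discs are bathed in hemolymph and lie near fat body, trachea and blood cells, which can be carried over at dissection.

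Myb itself gave 4586, 4929 and 4717 in mutant replicates 1 to 3, against 15216, 15119 and 16233 in control replicates 1 to 3, a log2 change of -1.71 (limma adjusted p = 3.54e-05, and 0.00171 with the replicate number as a block). Which part of Myb the probes cover is not given in the sources used here. Across the arrays, median signals spanned 996 to 1060, and the median bright transcript changed by 0.00 on the log2 scale. Gene names were available for 1999 of the transcripts, the ones with the smallest p-values in the study. All 38 members had one. Only 2 of 27 listed wing disc identity genes could be looked up among those names, so the tissue label was checked only in part. One, eyg, which is expressed in the notum part of the wing disc, averaged 7977 in mutant discs and 9486 in control discs. The other, Ubx, which specifies the haltere in place of a wing, averaged 680 in mutant discs and 990.5 in control discs.

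The members filled the range from a mutant signal of 2197 to 22904 and a control signal of 1024 to 9055, with a median of 6349 in mutant discs and 2065 in control discs. The log2 change had a median of 1.24, and ran upward from 1.01 (2.01-fold, CG4872) to 3.01 (8.08-fold, Lsp1beta). In 4 transcripts it was 2 or more, in 7 it lay between 1.5 and 2, and in 27 between 1 and 1.5. As many bright transcripts, 38, were at least halved without overlap.

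In all 38 members the lowest of the 12 mutant arrays was brighter than the highest of the 11 control arrays. The selection made this likely, since technical arrays repeat the same RNA and had a median SD of 0.05 in the members. The share of all bright transcripts with such a separation of arrays was not computed, so nothing is read from that count. On the log2 scale the gap between the lowest mutant and the highest control replicate had a median of 1.04 and ran upward from 0.56 in ABCA to 2.54 in Vha68-1. The selection required such a gap, and 17.6% of all bright transcripts had one in the same direction. A moderated linear model across all tested transcripts (limma, with a minimum signal of 500 in at least 1 replicate for any call) placed 26 of the 38 under an adjusted p of 0.001, where 0.787% of all transcripts were called higher. Since the selection used the same difference, nothing is read from that count. It was 2 (Vha68-1 and Ac3) with the replicate number as a block, where 0.258% were called higher, and without mutant replicates 1, 2 and 3 it was 2, 2 and 11. Without control replicates 1, 2 and 3 it was 3, 33 and 4. Over all tested transcripts, 131 were called higher, and 45, 47 and 68 without mutant replicates 1, 2 and 3. Leaving out control replicates 1, 2 and 3 gave 64, 178 and 58, so the totals moved as well.

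**Figure D1:**
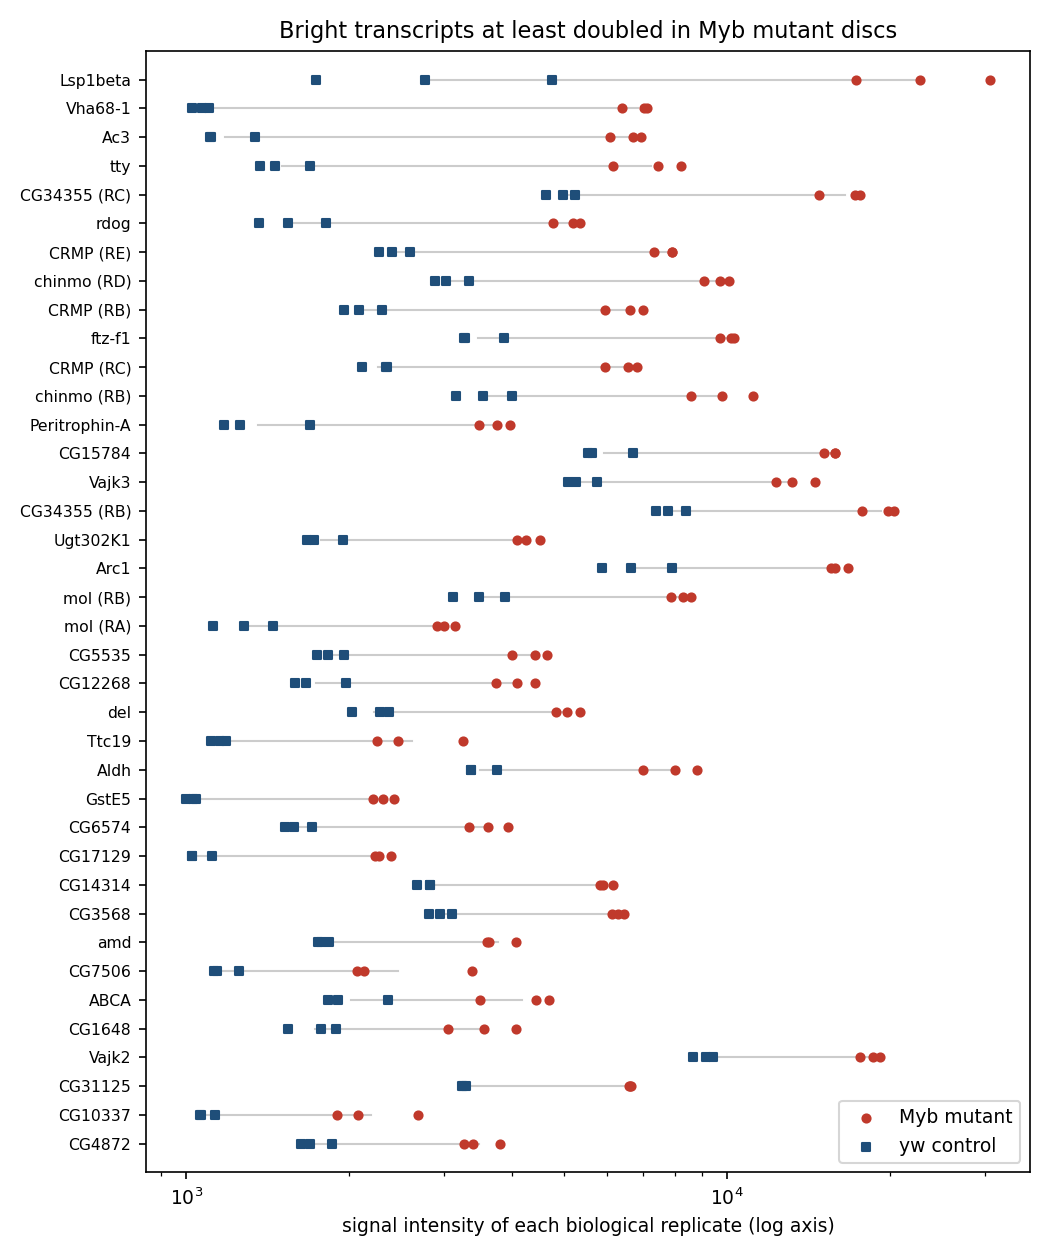
Signal intensity (log axis) of the 38 transcripts, ordered by log2 change, with red circles for the 3 Myb mutant replicates, blue squares for the 3 yw control replicates and a grey line between the means of the groups. In every row the mutant circles lie right of the control squares, with the widest gap in Vha68-1 and the narrowest in ABCA.

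**Figure D2:**
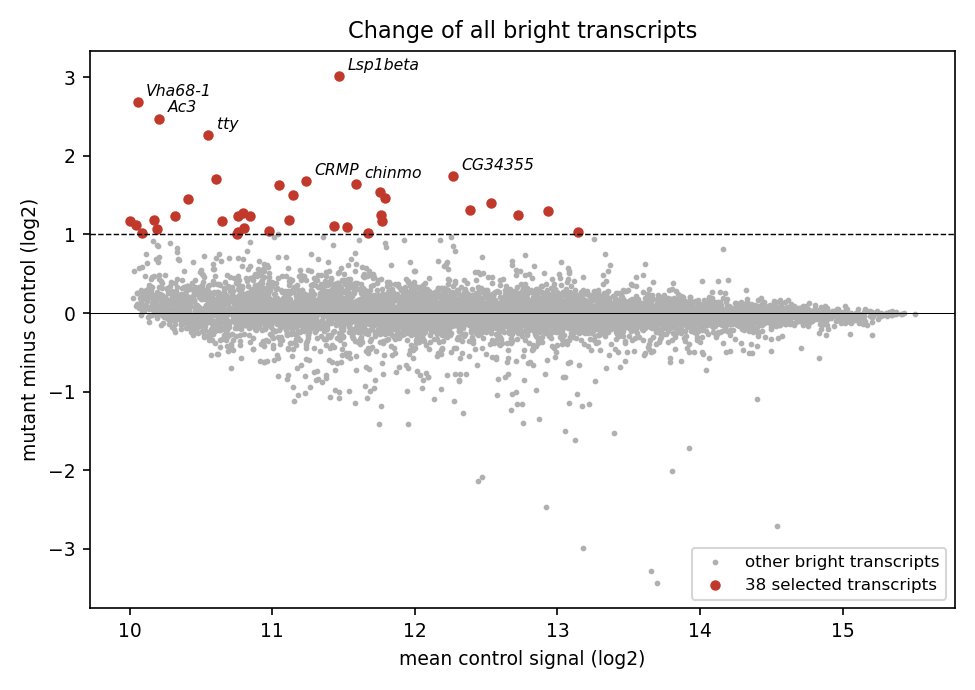
Mutant minus control difference (log2) against the mean control signal (log2) for the 7982 bright transcripts, with the 38 members in red and a dashed line at a difference of 1. The members are the red points above the line, and Lsp1beta, Vha68-1, Ac3 and tty stand above 2.

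Lsp1beta, a subunit of the larval serum proteins that the fat body stores and secretes into the hemolymph as an amino acid reserve, had the largest difference. Its signals were 22712, 17323 and 30538 in mutant replicates 1 to 3, against 2762, 4744 and 1740 in control replicates 1 to 3. That is a log2 change of 3.01 ± 0.39 (SE, n = 3 each). This SE and those below are moderated by the limma fit, so they do not follow from a transcript's own SDs alone. The groups were far apart, but the spread was the widest of any member, with SDs of 0.41 in mutant discs and 0.72 in control discs on the log2 scale, while technical arrays of one replicate stayed close to each other. Mutant replicate 3 was the brightest and control replicate 3 the dimmest.

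The 3 other larval serum protein genes had the same order of replicates in both genotypes but missed the selection, because at least 1 control replicate fell under 1000. Lsp1alpha, which encodes another subunit of the same hexamer, gave 9114, 7500 and 14630 in mutant discs, against 1170, 1788 and 489 in control discs. Its change was 3.31 (limma adjusted p = 0.0109, and 0.0522 with the replicate block). Lsp1gamma gave 14320, 9498 and 21172 in mutant discs, against 1435, 1966 and 768 in control discs. Its change was 3.46 (limma adjusted p = 0.00458, and 0.0357 with the replicate block). Lsp2, the related hexamerin, gave 14619, 10375 and 20929 in mutant discs, against 1562, 2939 and 993 in control discs. Its change was 3.15 (limma adjusted p = 0.00793, and 0.0457 with the replicate block). None of the 3 passed an adjusted p of 0.001. An RNA antisense to Lsp2, CR11538, was listed with a change of 3.19 (limma adjusted p = 0.0141, and 0.0597 with the replicate block), but the cDNA was double-stranded and primed at random, so its signal cannot be told apart from that of Lsp2.

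**Figure D3:**
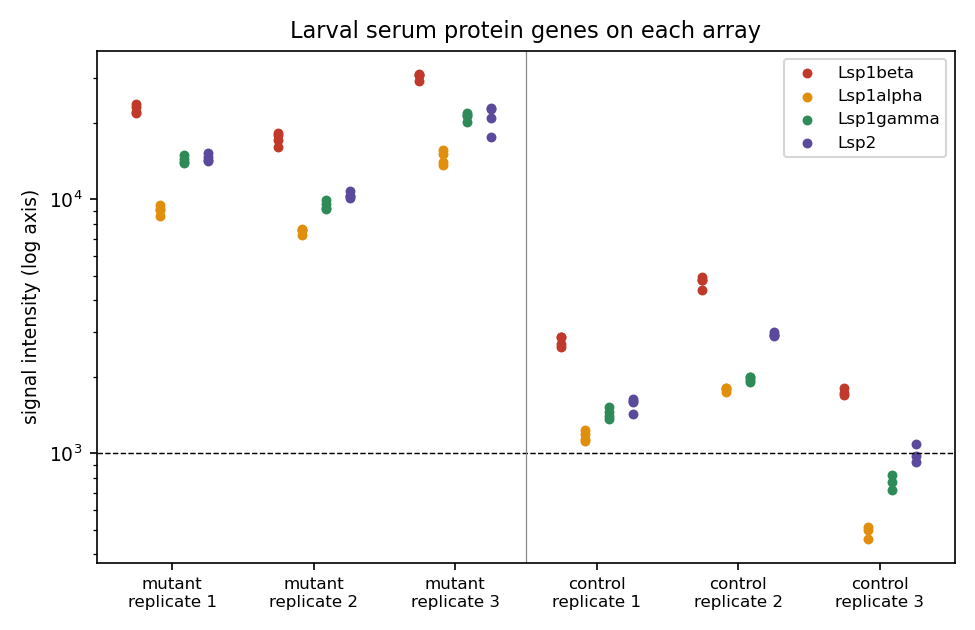
Signal intensity (log axis) of 4 larval serum protein genes on each array, with mutant replicates left of control replicates and a dashed line at the signal minimum of 1000. Arrays of 1 replicate cluster tightly, mutant replicate 3 is brightest and control replicate 3 dimmest for each gene, and only Lsp1beta stays above the line throughout.

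Most of the other fat body genes with a name were also higher in mutant discs, and a few were lower. Of 25 listed fat body and hemolymph genes, 13 could be looked up. Their summed signal was 66294 to 127602 in mutant replicates and 33323 to 39930 in control replicates. This sum includes Lsp1beta, which was chosen for being higher in the mutant, so nothing is read from its rise. Of the 12 beside Lsp1beta, 1 passed an adjusted p of 0.001 upward and 0 downward, while 9 passed 0.05 upward and 2 downward, where 3.43% of all transcripts did so upward and 2.98% downward. With the replicate block 4 passed 0.05 upward and 1 downward, against 2.95% and 2.7% of all transcripts. The 9 without the block include Lsp1alpha, Lsp1gamma, Lsp2 and CR11538, given above. Since CR11538 cannot be told apart from Lsp2, the signal of Lsp2 may count again, both among the 9 and in the sum. The call at 0.001 was Lsd-1, which encodes a perilipin of lipid droplets, at 6374, 6273 and 7240 in mutant discs and 496, 640 and 618 in control discs (3.51, limma adjusted p = 2.06e-05). The defining lipoprotein gene apolpp averaged 590 in mutant discs and 115 in control discs (2.36, limma adjusted p = 0.0184, and 0.0604 with the replicate block). The pair that was lower, named after their values were seen, comprised regucalcin, a calcium-binding protein gene, and the insulin-like peptide gene Ilp6. The mean of regucalcin was 3649 in mutant discs and 23836 in control discs (-2.71, limma adjusted p = 0.00488, and 0.0108 with the replicate block). Ilp6 changed by -0.74 (limma adjusted p = 0.0455, and 0.0788 with the replicate block). Most blood cell genes with a name were lower. The summed signal of 11 hemocyte genes was 4902 to 5781 in mutant replicates and 51415 to 62647 in control replicates, with 8 of the 11 called lower and 0 higher at 0.001, where 0.619% of all transcripts were called lower. With the replicate block it was 4 of the 11, against 0.108% of all transcripts. At 0.05, 9 were lower and 1 was higher. The one higher was PPO3, a prophenoloxidase gene named after its values were seen, at 0.92 (limma adjusted p = 0.00187). PPO2, a prophenoloxidase of crystal cells, was at 150, 242 and 105 in mutant discs, against 11467, 16803 and 13442 in control discs. Among the other called genes, PPO1 changed by -6.23, Hml by -4.12, Pxn by -3.43 and Sr-CI by -3.15 on the log2 scale, of which Pxn had an adjusted p over 0.001 with the block (0.00213). Of 5 tracheal genes that could be looked up, 1 was called lower (btl, a receptor of the tracheal cells, at -1.32 with a limma adjusted p of 0.000904, and 0.00895 with the replicate block) and 0 higher, with summed signals of 25821 to 28489 in mutant replicates and 29502 to 31258 in control replicates. At 0.05, 3 of these 5 were lower and 0 higher, and 2 were lower with the replicate block. The 4 larval muscle genes summed to 3697 to 3981 in mutant replicates and 3159 to 3543 in control replicates. At 0.05, 2 of the 4 were higher (Mlc2 and TpnC73F) and 0 lower, and 1 was higher with the replicate block. Among the 4, Mhc, the defining myosin heavy chain gene, averaged 119 in mutant discs and 79.2 in control discs. The part of adhering tissue or of a different cell make-up in the signal of Lsp1beta or of any other member was not tested, and more cells of a type and more RNA per cell cannot be told apart in whole discs. Listed genes could be looked up only if they ranked high by p-value, so the looked-up share of a list called is not comparable with the share over all transcripts.

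The next 4 differences belonged to genes of membranes and signaling, and one without a known role. Vha68-1 encodes a catalytic subunit of the vacuolar proton pump, which acidifies lysosomes and endosomes. It was at 7017, 7101 and 6389 in mutant replicates, against 1102, 1071 and 1027 in control replicates, a change of 2.68 ± 0.07 (SE, n = 3 each, 6.41-fold). The replicates of each genotype lay close together, and this was the widest gap among the members. Of 32 listed pump subunits, 3 could be looked up, and the other 2, Vha36-2 and VhaM9.7-a, stayed under the signal of 500 that a call required. No other Vha68 gene had a name here.

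Ac3 encodes an adenylyl cyclase, which makes the second messenger cyclic AMP. The member transcript, RC, was at 6696, 6920 and 6070 in mutant discs, against 1114, 1340 and 1105 in control discs, a change of 2.47 ± 0.10 (SE, n = 3 each). A second transcript, RA, was too dim in control discs to be a member, and the choice of members did not use its values. It was at 3807, 4103 and 3878 in mutant discs and 662, 715 and 617 in control discs, a rise of 2.57 (limma adjusted p = 1.25e-05, and 0.000554 with the replicate block). Transcripts of one gene may share probes and are not independent.

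Both transcripts of tty, a gene of the tweety family of chloride channels, were higher as well. The member RB was at 8218, 7439 and 6157 in mutant discs and 1459, 1696 and 1370 in control discs, a change of 2.27 ± 0.13 (SE, n = 3 each). Within the mutant, replicate 3 was the dimmest. The transcript RA was at 2746, 2517 and 1872 in mutant discs and 368, 640 and 356 in control discs, a change of 2.42 (limma adjusted p = 0.00295), which passed 0.05 but not 0.001.

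A pair of ATP-binding cassette transporter genes, which encode pumps that move molecules across membranes at the cost of ATP, were also members. The larger change was that of rdog, at 5197, 5349 and 4774 in mutant discs and 1541, 1810 and 1361 in control discs (1.71 ± 0.12, SE, n = 3 each). For ABCA the signals were 4437, 4684 and 3485 in mutant discs and 1908, 2358 and 1826 in control discs (1.05 ± 0.15, SE, n = 3 each). ABCA had the narrowest gap of all members, since mutant replicate 3 was low and control replicate 2 high. The last transporter, CG5535, belongs to the cationic amino acid carriers and was at 3997, 4412 and 4637 in mutant discs, against 1746, 1832 and 1954 in control discs (1.24 ± 0.08, SE, n = 3 each). Of the 4 other amino acid transporter genes that could be looked up, 0 passed 0.05 upward and 3 downward. The 3 were ine at -0.85 (limma adjusted p = 0.0212), path at -0.45 (0.0103) and dmGlut at -0.39 (0.0131).

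CRMP and Arc1 are best known from neurons, where CRMP proteins act on the cytoskeleton of growing axons and Arc1 forms virus-like capsids that carry RNA between cells. CRMP contributed 3 members, more than any other gene. The strongest, RE, was at 7896, 7910 and 7325 in mutant discs and 2397, 2589 and 2272 in control discs, a change of 1.67 ± 0.07 (SE, n = 3 each). Its transcripts RB and RC changed by 1.62 and 1.50. A CRMP transcript outside the selection, RA, was at 3994, 4124 and 3373 in mutant discs and 1058, 1237 and 981 in control discs (1.81, limma adjusted p = 0.000337, and 0.00163 with the replicate block). All CRMP transcripts that could be looked up thus lay between 1.50 and 1.81.

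Arc1 was at 15812, 15584 and 16697 in mutant discs and 5869, 7911 and 6633 in control discs, a change of 1.25 ± 0.12 (SE, n = 3 each). Its neighbor on 2R and close relative Arc2, named here after its values were seen, was at 1655, 1611 and 1964 in mutant discs and 794, 890 and 852 in control discs (1.04, limma adjusted p = 0.00151, and 0.0100 with the replicate block). Of 28 listed neuronal and synaptic genes, 7 could be looked up, with CRMP, Arc1 and Ac3 among them. Their summed signal was 45860 to 46794 in mutant discs and 18694 to 22041 in control discs. This sum includes the 3 members, which were chosen for being higher in the mutant, so nothing is read from its rise. All 4 that were not members passed 0.05 upward, where 3.43% of all transcripts did so. With the replicate block 3 of them did, against 2.95% of all transcripts, and without it 1 passed 0.001. This was Cadps, which primes dense-core vesicles for release, at 1367, 1277 and 1273 in mutant discs and 92, 145 and 115 in control discs (3.50, limma adjusted p = 8.97e-05, and 0.00243 with the replicate block). Names were held for the smallest p-values in the study, which made passes at 0.05 likely beforehand, so nothing is read from these 4. Whether the wing discs held more nerve tissue was not tested.

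Regulators of developmental timing were represented by chinmo and ftz-f1. The BTB zinc-finger protein Chinmo maintains the early, larval identity of progenitor cells, and the nuclear receptor Ftz-F1 makes tissues competent to respond to ecdysone after the larva has stopped feeding. The chinmo transcript RD was at 9077, 10058 and 9680 in mutant discs and 3025, 3337 and 2888 in control discs (1.64 ± 0.08, SE, n = 3 each), and its transcript RB was at 9791, 11147 and 8555 in mutant discs and 3536, 3995 and 3153 in control discs (1.46 ± 0.13, SE, n = 3 each). For ftz-f1 the signals were 9702, 10283 and 10172 in mutant discs and 3282, 3873 and 3263 in control discs (1.54 ± 0.09, SE, n = 3 each). The mutant replicates of ftz-f1 spanned a narrow range, while control replicate 2 stood above the other control replicates.

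The other ecdysone-response genes that could be looked up had lower means in mutant discs. Of 41 listed timing genes, 13 could be looked up. Beside the pair of members, 9 of 11 fell and 0 rose by limma at an adjusted p under 0.05, and 0 passed 0.001 (11 of the 11 had an unadjusted p under 0.05, which the ranking of the names by p-value made likely beforehand). The median change of the 11 was -1.10, against -0.01 over all tested transcripts and 0.20 over those with a name. The listed genes without a name were not analysed here. With the replicate block 7 of the 11 fell. Hr3, a nuclear receptor known as an activator of ftz-f1, was at 499, 667 and 148 in mutant discs and 2548, 1822 and 1778 in control discs, a change of -2.46 (limma adjusted p = 0.0468, and 0.0522 with the replicate block). Blimp-1, a zinc-finger protein known as a repressor of ftz-f1, was at 5255, 4498 and 1918 in mutant discs and 15483, 13303 and 14177 in control discs, a change of -2.0 (limma adjusted p = 0.0234). Hr4 changed by -2.23 (limma adjusted p = 0.0148), Eip78C by -1.71 (0.0213) and E23, an ecdysone-induced transporter gene, by -1.10 (0.0219). Mutant replicate 3 was the lowest mutant replicate for these 5 genes, and also for chinmo RB, but not for ftz-f1 or chinmo RD. The part of developmental stage in these signals was not tested.

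**Figure D4:**
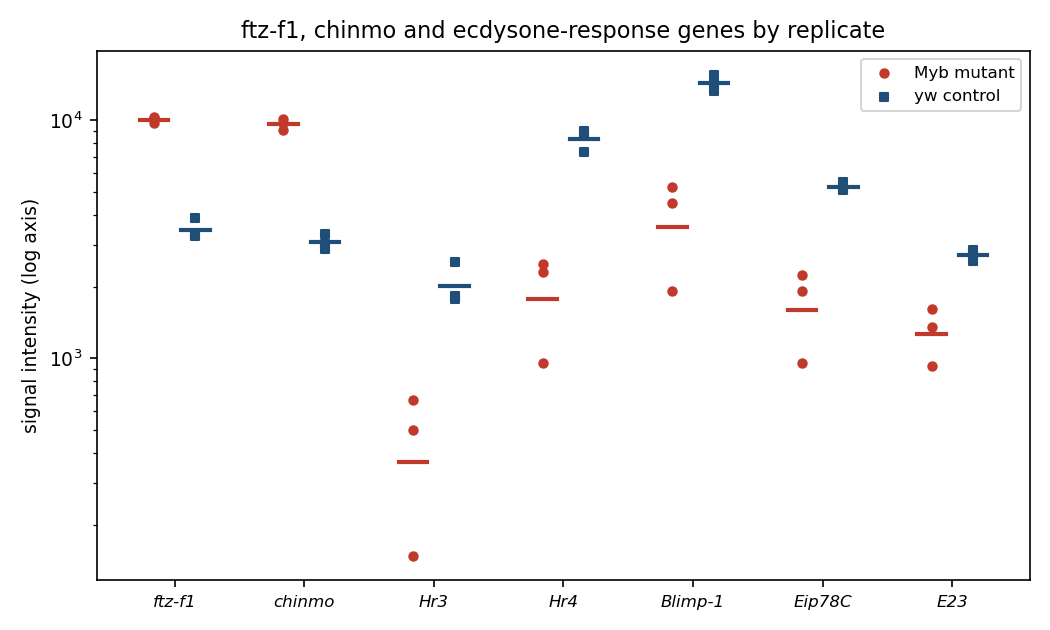
Signal intensity (log axis) by biological replicate of ftz-f1, chinmo (RD) and 5 other ecdysone-response genes, with mutant circles left of control squares and a bar at each mean. The first pair is higher in mutant discs and the others are lower, with mutant replicate 3 lowest among the mutant points of each of those 5.

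Cuticle genes formed the next set. Vajk3 and Vajk2 are neighbors on 2L and encode secreted proteins of the cuticle, the chitin-rich outer layer of the fly. Vajk3 was at 12316, 14508 and 13188 in mutant discs and 5088, 5746 and 5258 in control discs (1.31 ± 0.09, SE, n = 3 each). The Vajk2 transcript RB was at 17628, 19197 and 18615 in mutant discs and 8628, 9154 and 9402 in control discs (1.03 ± 0.07, SE, n = 3 each), and its transcript RA, at 0.94, lay just outside the selection.

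The remaining Vajk genes differed in direction. Vajk1 was at 144, 112 and 113 in mutant discs, against 2273, 3668 and 3196 in control discs, a change of -4.61 (limma adjusted p = 6.35e-05, and 0.00277 with the replicate block). Vajk4, which lies on another chromosome arm, was at 646, 572 and 418 in mutant discs and 1236, 979 and 867 in control discs (-0.92, limma adjusted p = 0.0412). Within this family of 4, the members Vajk2 and Vajk3 were thus higher and the other pair lower in the mutant.

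Peritrophin-A, a chitin-binding protein, was at 3964, 3749 and 3479 in mutant discs and 1176, 1694 and 1257 in control discs (1.46 ± 0.15, SE, n = 3 each). The amd gene, whose enzyme acts in catecholamine metabolism needed for a normal cuticle, was at 3604, 3636 and 4078 in mutant discs and 1834, 1775 and 1750 in control discs (1.08 ± 0.07, SE, n = 3 each). Of the 15 other cuticle, chitin and tanning genes that could be looked up, 3 passed 0.05 upward and 8 downward, and 0 passed 0.001 upward and 2 downward. With the replicate block 2 passed 0.05 upward and 6 downward. Beside Vajk1 the call at 0.001 was Idgf6, a chitinase-like growth factor, at -1.03 (limma adjusted p = 0.000469, and 0.00629 with the replicate block).

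**Figure D5:**
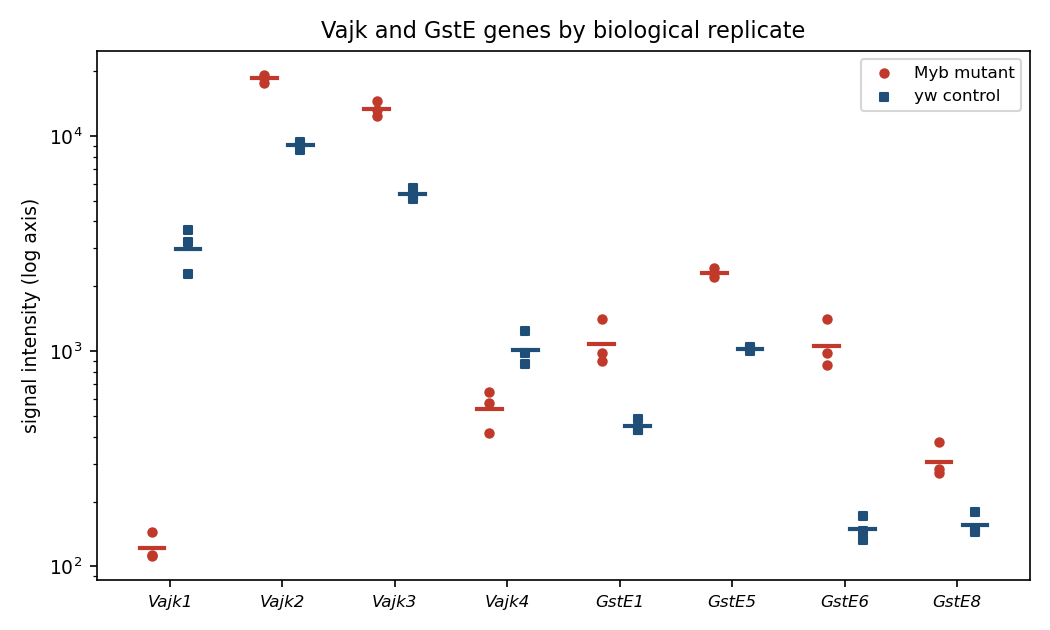
Signal intensity (log axis) by biological replicate of 4 Vajk genes and 4 GstE genes, with mutant circles left of control squares and a bar at each mean. Vajk2 and Vajk3 are higher and Vajk1 and Vajk4 lower in the mutant, whereas the mutant points of the 4 GstE genes lie above their control points.

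Enzymes that detoxify reactive or foreign compounds were the last set with shared roles. GstE5, a glutathione transferase, was at 2211, 2316 and 2422 in mutant discs and 1029, 1000 and 1044 in control discs (1.18 ± 0.06, SE, n = 3 each), with control replicate 2 at the signal minimum. Of the same gene cluster, GstE6 was at 859, 985 and 1411 in mutant discs and 133, 171 and 146 in control discs (2.83, limma adjusted p = 0.000421, and 0.00408 with the replicate block). GstE1 changed by 1.26 (limma adjusted p = 0.00786). GstE8 differed by 0.98 but stayed under the signal of 500 that a call required. Near-identical members of the cluster may share hybridization, and their values are uncertain to that extent.

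Ugt302K1, a UDP-glycosyltransferase that couples sugars to small molecules, was at 4512, 4079 and 4252 in mutant discs and 1670, 1952 and 1720 in control discs (1.27 ± 0.08, SE, n = 3 each). Its relative Ugt302C1 changed by 0.26 (limma adjusted p = 0.0967), which did not pass 0.05. Aldh, an aldehyde dehydrogenase, was at 6978, 7994 and 8788 in mutant discs and 3360, 3757 and 3363 in control discs (1.18 ± 0.10, SE, n = 3 each). Of the 18 other detoxification genes that could be looked up, 3 were higher and 0 lower at 0.001, and 8 were higher and 2 lower at 0.05. The calls at 0.001 beside GstE6 were Sodh-2, a sorbitol dehydrogenase, at 2.30 (limma adjusted p = 0.000376) and CG10863, a gene of the aldo-keto reductase family, at 1.72 (0.000285). Both had an adjusted p of 0.00517 with the replicate block.

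The member mol encodes a partner needed for maturation of the oxidase Duox, which makes hydrogen peroxide. Its transcript RB was at 7880, 8555 and 8280 in mutant discs and 3118, 3877 and 3479 in control discs (1.24 ± 0.09, SE, n = 3 each), and RA changed by the same 1.24. The stress list also held CG15784, at 15809, 15102 and 15838 in mutant discs and 5524, 6692 and 5622 in control discs (1.40 ± 0.09, SE, n = 3 each). Among 21 other stress, wound and apoptosis genes, 7 were higher and 3 lower at 0.05, and the call at 0.001 was rpk, an ion channel gene, at 0.96 (limma adjusted p = 0.000204, and 0.00399 with the replicate block). Among 6 other genes of Toll, Imd and death-domain signaling, 2 were higher and 1 lower at 0.05, and 2 and 2 with the replicate block. The call at 0.001 was Dif, a Toll pathway transcription factor, at 3817, 4154 and 3623 in mutant discs and 935, 1265 and 868 in control discs (1.94, limma adjusted p = 0.000663, and 0.00264 with the replicate block).

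Deadlock, the product of del, acts in germ cells in the transcription of clusters that give rise to piRNAs, the small RNAs that silence transposons. In the wing discs del was at 4816, 5052 and 5351 in mutant replicates and 2282, 2370 and 2028 in control replicates (1.19 ± 0.08, SE, n = 3 each). The groups did not overlap, and each spanned a narrow range. Of 14 other piRNA pathway genes that could be looked up, 3 were higher and 2 lower at 0.001. Those higher were fs(1)Yb, which acts in gonadal somatic cells, at 4.39 (limma adjusted p = 1.79e-05), tej at 2.56 (8.54e-05) and krimp at 2.03 (0.000184). Those lower were vret at -1.75 (limma adjusted p = 0.000136) and shu at -1.30 (0.000294). With the replicate block only fs(1)Yb of these 5 remained under 0.001, at 0.000982.

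The remaining metabolic members were CG12268 and Ttc19. CG12268, of the fatty acyl-CoA reductase family, changed by 1.23. Ttc19, needed for complex III of the respiratory chain, was at 2256, 2459 and 3242 in mutant discs and 1155, 1113 and 1187 in control discs (1.19 ± 0.14, SE, n = 3 each), with mutant replicate 3 well above the other mutant replicates. The same replicate stood out in CG7506, at 2069, 2133 and 3378 in mutant discs and 1139, 1126 and 1250 in control discs, and in CG10337, at 1903, 2074 and 2685 in mutant discs and 1067, 1131 and 1062 in control discs. Without mutant replicate 3 the change was 1.03 for Ttc19, 0.84 for CG7506 and 0.87 for CG10337, so the last pair would have missed the criterion.

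A further 11 genes, among them CG7506, CG10337 and CG15784, are given no role here. CG34355 contributed a pair of transcripts. Its transcript RC was at 17577, 17210 and 14798 in mutant discs and 4966, 5231 and 4630 in control discs (1.74 ± 0.09, SE, n = 3 each), and RB changed by 1.30. CG31125 had the most uniform values, at 6573, 6648 and 6618 in mutant discs and 3244, 3236 and 3283 in control discs, an SD of 0.01 on the log2 scale in either genotype and a change of 1.02. The others changed by 1.17 (CG6574), 1.12 (CG17129), 1.10 (CG14314), 1.09 (CG3568), 1.03 (CG1648, transcript RA) and 1.01 (CG4872).

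The lower edge of the selection fell in a continuous range. Just inside were CG4872 at 1.01, CG10337 and CG31125 at 1.02, and Vajk2 (RB) and CG1648 (RA) at 1.03. Just outside, 10 bright transcripts had changes between 0.90 and 0.999. They were sl, which encodes a phospholipase C, at 0.999, CG1648 (RB) and the death-domain adaptor gene Fadd at 0.97, rpk at 0.96, Vajk2 (RA) and slf at 0.94, the condensin subunit gene Cap-D3 and Cda5 at 0.93, CG7054 at 0.92 and CG8927 at 0.90.

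Across the members the mutant replicates held no single order, while control replicate 2 was often the brightest control replicate. Control replicate 2 was the highest control replicate in 25 of the 38, where the same held for 44.4% of bright transcripts, and the lowest in 5, against 28.2% of bright transcripts. Mutant replicate 3 was the highest mutant replicate in 16 and the lowest in 15, where the same held for 43.6% and 47.9% of bright transcripts. The order seen in Lsp1beta, with mutant replicate 3 highest and mutant replicate 2 lowest, was found in 5 members. The median SD of a member was 0.10 on the log2 scale in either genotype, whereas that of bright transcripts was 0.10 in mutant discs and 0.06 in control discs.

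By chromosome, 12 of the 33 member genes (36.4%) lay on 2L, an arm with 19.1% of the annotated protein-coding genes. There were 8 on 3R, 6 on X, 4 on 3L and 3 on 2R (9.09%, against 20.5% of genes). Of the 66 nearest protein-coding neighbors of member genes, 8 (12.1%) had a transcript called higher at an adjusted p under 0.05 and 0 one called lower. Over the neighbors of all protein-coding genes the shares were 3.53% and 2.90%. With the replicate block 6 of the 66 (9.09%) were called higher and 0 lower, against 2.89% and 2.52%. Of the 8, 2 were Vajk2 and Vajk3 themselves, which flank each other, and Arc2 and GstE6 were named above as relatives of Arc1 and GstE5. The labeling did not separate strands, so overlapping neighbors could share signal. Both backgrounds, for chromosomes and for neighbors, hold all annotated protein-coding genes, also those that were dim or not tested. Shares among bright transcripts were not computed, so no excess is read as a trait of the members.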

How the data were processed

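RNA from wing discs was hybridized, as Cy3-labeled cDNA, to one-color NimbleGen expression arrays (12 of mutant and 11 of control discs). The authors corrected the background, normalized by quantiles and summarized probes by median polish (RMA in ArrayStar), and the deposited values are signal intensity on a linear scale, 1 per transcript and array. Besides these, 0 columns held sample values. Of 21051 transcripts, 4414 had the same value on every array and were not tested. Slide and scan were not analysed here. The number of biological replicates, 3 per genotype, limited the precision. The labels do not say whether biological replicates came from separate dissections, so p-values measure only the spread between these samples.

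Genotype and replicate were taken from the sample titles. Signals were converted to log2 and averaged over the technical arrays of a biological replicate, so that the 6 replicates were the units. They were compared by lmFit and eBayes (limma 3.58.1, R 4.3.3), two-sided, with Benjamini-Hochberg adjustment over 16637 transcripts. A call needed an adjusted p under 0.001 and a signal of 500 in at least 1 replicate, and counts at 0.05 are also given. Every change is mutant minus control (log2), and each SE is the moderated SE of this fit, which also draws on the variance of all tested transcripts. The fit was tested on simulated data. Alternatives were another threshold or signal minimum, the methods' t-test, all arrays with the replicate as a random block (statmod 1.5.0), a replicate block, an intensity trend with a robust prior, median or first technical array, median centring, a second quantile normalization, and each replicate left out in turn.

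To check the pairing of replicate numbers, each replicate's deviation from its genotype mean was correlated with that of the replicate of the same number. This gave 0.20, 0.18 and 0.28 for the 16637 transcripts and 0.15, 0.57 and 0.67 for the bright ones. Every pair exceeded 0.1, the cut used here, but correlations between unlike numbers were not computed. The numbers may therefore pair the samples, which this check does not establish. The study's methods name no block, and the fit without a block still gives the counts, with the block's values beside part of them. That fit is limma, in place of the study's t-test. The source of a pairing is not stated in the labels.

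Transcripts were named from a supplementary sheet of the study, used for identity alone and held in part (1999 transcripts of 1768 genes). All 234 transcripts called at 0.001 had a name. RefSeq (Release 6) held the genes of 1961 of them and was used for current symbols and gene order. The members and the 15 gene lists were chosen with earlier results of these data known. Values by replicate are given for the 12 largest changes and for members in a list, with the transcript of the largest change standing for its gene. Of other genes, those called at 0.001 (or, in a list without any, at 0.05), at most 5 a list, and relatives of members by name are given. List counts take 1 transcript a gene, the brightest. Of the 1999 named transcripts 1062 passed 0.05 in either direction, so passes within a list were likely beforehand.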

Additional observations from a re-analysis of the deposited data

How the results depend on the processing

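The selection gave 70 transcripts with a signal minimum of 500 in all replicates, which included the 38, and 17 with a minimum of 2000. Under median centring, a second quantile normalization, the median array and the first array it gave 38, 37, 37 and 35 transcripts, of which 36, 35, 36 and 33 were among the 38. Leaving out 1 replicate gave 35 to 45. Single members changed by over 1 SD only in CG31125, whose replicates were nearly equal. Its change was 1.04 with the median array, 1.01 with centring and 1.00 with quantiles. Of 380 recomputed member changes, 377 stayed within 1 SD and 0 reversed. These include the fits without 1 replicate, which shift a group mean by less than 1 SD of that group whatever the data. Since the members were chosen for groups without overlap, such a fit could not reverse a change either. Nothing is therefore read from these totals.

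Calls over all transcripts numbered 234, against 1066 at 0.05, 61 with the replicate block, 17 with the methods' t-test on the 6 means after adjustment and 1184 with all arrays and a random block. Leaving out 1 replicate gave 70 to 317. Members called numbered 26, against 2 with the replicate block and 2 with the t-test, and 2 to 33 without 1 replicate. Of the other transcripts of member genes 3 were called, against 5 at 0.05, 1 with the replicate block, 0 with the t-test (5 of 5 had an unadjusted p under 0.05) and 5 with the random block, and 1 to 4 without 1 replicate. List genes called numbered 24, against 88 at 0.05 and 6 with the replicate block. Among the members, only Vha68-1 and Ac3 kept a call at 0.001 under the block. The cause of these differences was not tested. The control signal of the dimmest members lay near the signal minimum, so their membership depends on it.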
